A study of Mus musculus with 4 samples.

Results

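Kinesins are motor proteins that turn the energy of ATP into movement along microtubules. The family members described here are the genes whose symbol begins with Kif or Kifc and a number, taken from array rows that carried 1 gene symbol. They came to 42 of the 22180 genes measured. They were placed by textbook role into 14 mitotic kinesins, 17 transport kinesins, 6 kinesins of cilia and signalling and 4 others, and 1 pseudogene, Kif4-ps, was left unclassified. Kif5b, Kif7 and Kif27 had several rows each, and the brightest on average stands for the gene.

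The arrays measured Thy1+ LSK cells sorted from the bone marrow of C57BL/6 mice aged 11 to 18 months, a lineage-negative fraction carrying Sca-1 and Kit that is enriched for haematopoietic stem cells. One group lacked both copies of Nol3 and is labelled MPN, read here as myeloproliferative neoplasm (Nol3-/- MPN, 2 arrays), and the other had intact Nol3 (Nol3+/+, 2 arrays). Both groups were untreated primary cells that had never been cultured. The labels do not say how the Nol3 allele was made, which sex the mice were, or whether an array held 1 animal or a pool, so p-values measure only the spread between these arrays.

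Some facts of the whole series bear on every value below. Signals are on a log2 scale with array medians between 5.35 and 5.39. Over the tested genes, Nol3+/+ replicate 1 stood apart, with correlations across genes of 0.899 to 0.911 to the other arrays, against 0.929 to 0.949 among the rest. Xist read 10.9 and 10.7 in Nol3-/- MPN, against 5.43 and 5.28 in Nol3+/+, and the Y-linked Eif2s3y read 4.24 and 3.97, against 6.53 and 7.17, so genotype, disease label and sex-linked signal cannot be told apart in these groups. Nol3 itself read 5.38 and 5.50 in Nol3-/- MPN and 5.31 and 5.52 in Nol3+/+, and where its probes lie relative to the deletion is not given, so the row does not check the genotype. The sort marker Kit read 8.38 and 7.39 in Nol3-/- MPN and 8.07 and 8.10 in Nol3+/+, and Thy1, at 4.64 and 5.24 against 4.74 and 5.02, lay around 4.835, the limit under which a gene was treated as dim and not tested. Ly6a, which encodes Sca-1, was not analysed here.

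Cells use kinesins for 2 broad kinds of work. Mitotic kinesins build the spindle, move chromosomes and cut the daughter cells apart, and they are made mainly while a cell divides. Transport kinesins carry vesicles, organelles and RNA towards the far ends of microtubules in cells that may or may not divide. Most haematopoietic stem cells in adult marrow rest, whereas the progenitors around them cycle. The comparison asks how mitotic and transport kinesins differ between Nol3-/- MPN and Nol3+/+ cells.

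Of the 42 kinesins, 36 passed the filter on dim genes, among them all 14 mitotic members and 14 of the 17 transport members. None passed the adjusted threshold of 0.05 in limma, which 0.0240% of the 16635 tested genes did, and the lowest adjusted p of a kinesin was 0.841. At an unadjusted limma p under 0.05 there were 3 kinesins, all mitotic and all with higher signal in Nol3-/- MPN, where the background over all tested genes was 5.80%, or 3.73% for higher and 2.07% for lower signal alone. They were Kif20b, Kif2c and Kif22. None of the 36 had a difference of at least 2-fold at that p, as 1.02% of tested genes did. A positive log2 difference was found in 23 of the 36, beside 51.7% of all tested genes. In bulk RNA of sorted cells, more dividing cells in the sample and more kinesin RNA per cell cannot be told apart.

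The mitotic class leaned to higher signal in Nol3-/- MPN. Of its 14 members 11 had a positive log2 difference, and in 8 both Nol3-/- MPN arrays lay above both Nol3+/+ arrays, a share of all tested genes of 19.7%. In 1 member, Kifc1, they lay below, against 15.9% of tested genes. The median log2 difference of the mitotic members was 0.13, with quartiles of 0.015 and 0.48, beside 0.0084 for all tested genes. Members share arrays and were chosen with earlier results known, so these counts describe the class and carry no test. When Nol3+/+ replicate 1 was left out, 9 mitotic members separated upwards, against 36.5% of tested genes with 3 arrays, and the median was 0.16.

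Kif20b, a motor of the final stage of cytokinesis, had the largest difference of any tested kinesin. It read 9.16 and 9.27 in Nol3-/- MPN, against 8.27 and 8.48 in Nol3+/+. The groups did not overlap, and the gap between them was wider than the spread within either. On the log2 scale the difference was 0.84 (SE 0.21, 95% interval 0.30 to 1.38), a 1.79-fold signal ratio, with an adjusted p of 0.841 in limma.

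Kif2c encodes MCAK, which takes microtubule ends apart at centromeres and so helps correct faulty attachments. Its signal was 5.92 and 6.04 in Nol3-/- MPN, against 5.48 and 5.51 in Nol3+/+. The arrays of each group lay close together and the groups did not overlap. The log2 difference was 0.49 (SE 0.14, 95% interval 0.14 to 0.84, adjusted p = 0.841 in limma). Kif2b, a relative with the same activity, read 5.39 and 5.19 in Nol3-/- MPN and 5.29 and 5.27 in Nol3+/+, where the groups overlapped.

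Kif22, also called Kid, binds chromosome arms and pushes them towards the middle of the spindle. It read 6.64 and 6.71 in Nol3-/- MPN, against 6.22 and 6.11 in Nol3+/+, again without overlap. The log2 difference was 0.51 (SE 0.17, 95% interval 0.062 to 0.95, adjusted p = 0.841 in limma). With the replicate number as a block its unadjusted p was no longer under 0.05. Kif4, another kinesin that rides on chromosomes and the only X-linked member, read 5.78 and 6.44 in Nol3-/- MPN and 6.17 and 5.84 in Nol3+/+. Its arrays were spread widely within each group, and its log2 difference of 0.10 had an interval from -0.59 to 0.80.

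Kif15 and Kif11 are the motors that hold the poles of the spindle apart. Kif15 read 8.07 and 7.66 in Nol3-/- MPN, against 7.56 and 7.03 in Nol3+/+. The higher Nol3+/+ array lay just under the lower Nol3-/- MPN array, and the interval of the difference of 0.57 included 0 (SE 0.30, 95% interval -0.18 to 1.32, adjusted p = 0.841 in limma). Kif11, the kinesin-5 motor, read 8.51 and 8.50 in Nol3-/- MPN, against 8.12 and 8.35 in Nol3+/+. The groups separated, but its difference of 0.27 had an interval from -0.29 to 0.84. The value of Kif15 depended on which arrays were used, since it was 0.83 when Nol3+/+ replicate 1 was left out, 0.31 when Nol3+/+ replicate 2 was and 0.36 when Nol3-/- MPN replicate 1 was.

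Kif23, the motor subunit of centralspindlin, read 7.53 and 7.44 in Nol3-/- MPN, against 6.75 and 7.34 in Nol3+/+. Its difference of 0.44 (SE 0.27, adjusted p = 0.863 in limma) rested largely on 1 array, since it was 0.15 without Nol3+/+ replicate 1 and 0.74 without Nol3+/+ replicate 2. Kif20a, which brings the chromosomal passenger complex to the central spindle, had a log2 difference of 0.042, and Kif14, which works beside it in cytokinesis, one of 0.057. The estimates for the motors of cytokinesis thus varied, but their intervals overlap and a difference between these genes was not tested. The interval of Kif14 ran from -0.45 to 0.57 and that of Kif20a from -0.36 to 0.44, so differences of that size were not resolved with 2 arrays a group.

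Kifc1 was the member that ran the other way most clearly. It encodes a kinesin that walks towards the minus end and gathers microtubules at spindle poles. It read 5.89 and 5.70 in Nol3-/- MPN, against 6.16 and 5.99 in Nol3+/+, a log2 difference of -0.27 (SE 0.16, 95% interval -0.69 to 0.14, adjusted p = 0.857 in limma). Kifc5b, a close copy of Kifc1 in the mouse genome, had a difference of -0.087 with overlapping arrays, and signals of the pair may not be fully separate. Kif18a, which limits the swings of chromosomes at metaphase, read 7.71 and 7.40 in Nol3-/- MPN and 8.08 and 7.42 in Nol3+/+. Its difference of -0.20 became 0.13 without Nol3+/+ replicate 1. Kif18b, which acts on the outer ends of spindle microtubules with Kif2c, had a difference of 0.15 without overlap (95% interval -0.26 to 0.56).

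**Figure D1:**
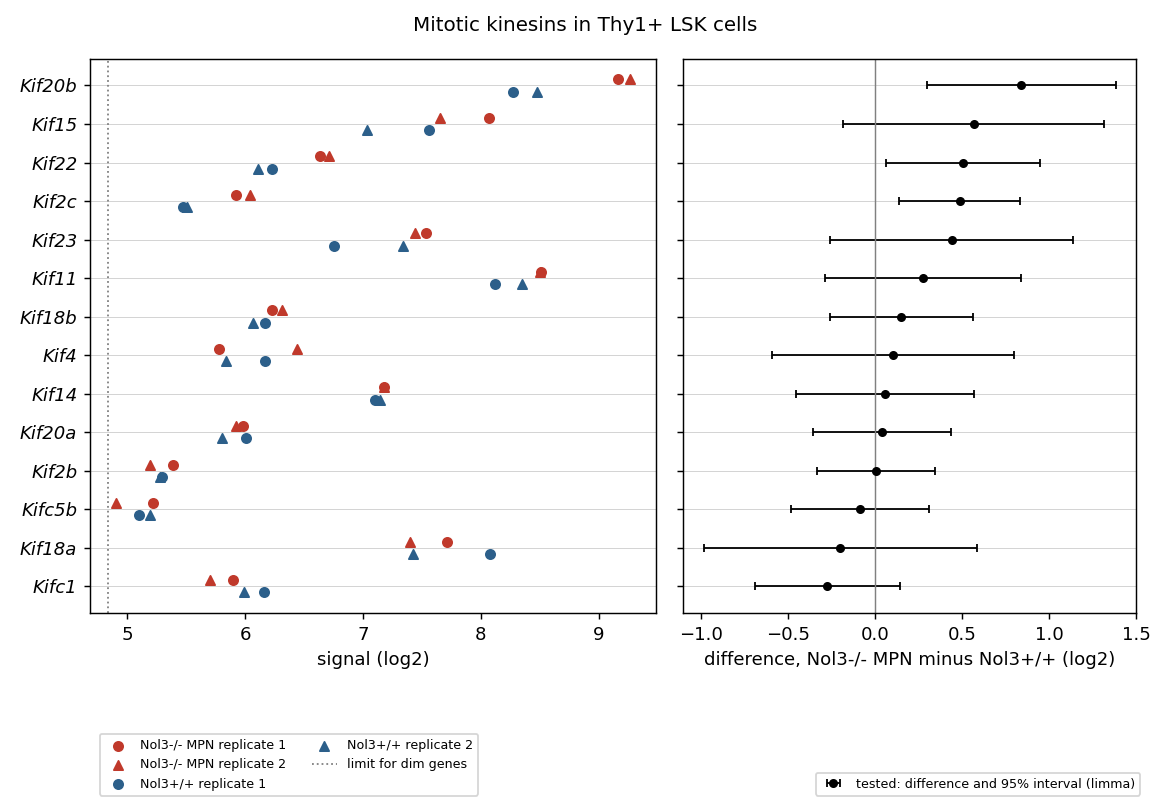
Mitotic kinesins, ordered by their difference. The left panel shows the log2 signal of every array, with Nol3-/- MPN (red) above Nol3+/+ (blue) in each line and the limit for dim genes as a dotted line. The right panel shows the log2 difference, Nol3-/- MPN minus Nol3+/+, with its 95% interval from limma. The intervals of Kif20b, Kif22 and Kif2c lie above 0, and those of the other 11 members include 0.

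Most mitotic kinesins share a promoter feature that played no part in choosing them. Many genes of the late cell cycle carry a cell cycle homology region, a short element near the start site that MuvB complexes bind, and a CCAAT box, bound by NF-Y. RefSeq promoter windows of build GRCm38.p6, from 250 bases before to 50 bases after an annotated start, were matched by gene identifier for 33 of the 42 members. Kif13b, Kif19a, Kif20a, Kif21b, Kif4-ps, Kif5a, Kif5b, Kifc2 and Kifc3 were not analysed here. The letters searched were TTTGAA for the homology region and CCAAT for the box, on both strands, and no match of one overlapped a match of the other in these promoters. TTTGAA stood in 11 of 13 mitotic promoters and in 1 of 11 transport promoters, and in 17.9% of all 32851 windows or 20.2% of the 27025 genes that have one. Counting only matches that begin between 50 bases before and 30 bases after the start, 9 of 13 mitotic genes had one, beside 4.97% of all genes. CCAAT stood in 9 of 13 mitotic and 3 of 11 transport promoters, beside 41.1% of all genes. Each of these mitotic counts includes both Kifc1 and its close copy Kifc5b, whose promoters may not be independent. The 1 transport match to TTTGAA, in Kif1a, lay at its second annotated start.

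The stretches below run from 110 bases before to 30 bases after the annotated start, and capitals mark TTTGAA or its reverse complement. Kif20b, Kif22 and Kif2c are shown because they had the lowest p, Kif15, Kif23 and Kif11 as the next 3 mitotic members by positive difference, Kifc1 because it ran the other way, and Kif13a as a transport kinesin without the element.
Kif20b: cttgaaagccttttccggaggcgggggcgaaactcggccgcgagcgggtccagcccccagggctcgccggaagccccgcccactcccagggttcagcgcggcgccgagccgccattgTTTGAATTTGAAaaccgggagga
Kif22: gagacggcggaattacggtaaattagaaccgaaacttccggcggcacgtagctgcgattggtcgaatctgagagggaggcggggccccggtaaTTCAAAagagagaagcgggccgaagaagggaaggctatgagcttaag
Kif2c: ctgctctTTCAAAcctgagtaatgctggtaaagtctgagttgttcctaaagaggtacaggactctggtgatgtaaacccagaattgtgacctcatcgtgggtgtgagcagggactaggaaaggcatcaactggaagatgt
Kif15: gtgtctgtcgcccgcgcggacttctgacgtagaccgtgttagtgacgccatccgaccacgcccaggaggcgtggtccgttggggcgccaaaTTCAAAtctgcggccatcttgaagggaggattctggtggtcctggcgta
Kif23: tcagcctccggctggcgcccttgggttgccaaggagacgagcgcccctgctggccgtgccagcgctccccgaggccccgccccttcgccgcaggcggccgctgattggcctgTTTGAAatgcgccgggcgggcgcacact
Kif11: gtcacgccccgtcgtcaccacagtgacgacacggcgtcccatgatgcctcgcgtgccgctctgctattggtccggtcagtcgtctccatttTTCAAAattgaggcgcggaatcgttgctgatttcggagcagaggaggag
Kifc1: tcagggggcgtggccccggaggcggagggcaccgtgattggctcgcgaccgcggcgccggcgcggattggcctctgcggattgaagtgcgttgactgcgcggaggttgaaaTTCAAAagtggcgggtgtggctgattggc
Kif13a: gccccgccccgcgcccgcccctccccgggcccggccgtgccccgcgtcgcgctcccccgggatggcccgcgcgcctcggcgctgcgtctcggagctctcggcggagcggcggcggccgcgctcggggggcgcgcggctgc

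In GRCm38.p6 these lie at chr19:34922248-34922387 (Kif20b, plus strand), chr7:127042391-127042530 (Kif22, minus), chr4:117178743-117178882 (Kif2c, minus), chr9:122950971-122951110 (Kif15, plus), chr9:61946770-61946909 (Kif23, minus), chr19:37376272-37376411 (Kif11, plus), chr17:33890604-33890743 (Kifc1, minus) and chr13:46929689-46929828 (Kif13a, minus). Each spans the proximal promoter and the start of the transcript. Kif20b has 2 copies back to back, beginning at bases 8 and 14 of the transcript. Within these stretches the element begins at position -19 from the start in Kif15 and Kif11 and at -17 in Kif22, whereas in Kif2c it lies at -103. Kifc1 and Kif23 carry it at bases 2 and 3 of the transcript. Members with the element included both Kif20b, with the largest positive difference, and Kifc1, with the lowest difference of the class. Kif18a and Kif2b had no match, and a link between the element and the direction of the difference was not tested. The letters match a known element by sequence only, and binding was not measured.

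**Figure D2:**
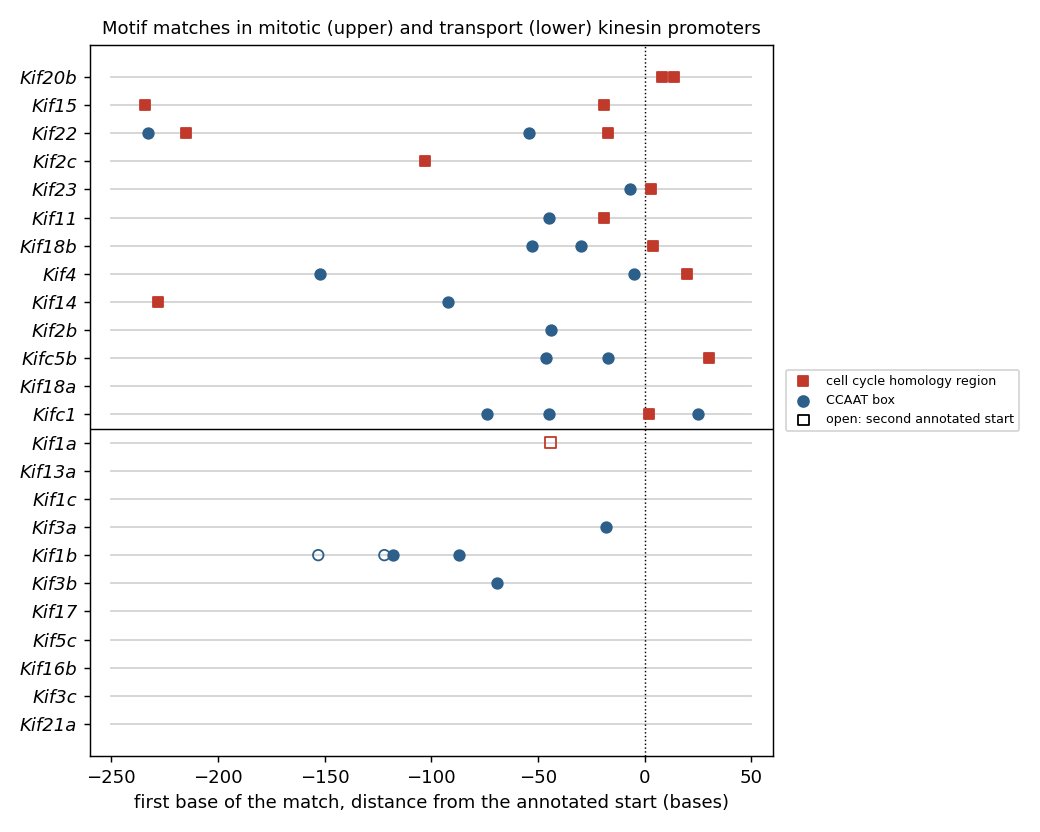
Matches to the cell cycle homology region (red squares) and to the CCAAT box (blue circles) in RefSeq promoter windows, by distance in bases from the annotated start. Mitotic kinesins stand above the line and transport kinesins below it, each ordered by log2 difference, and open symbols belong to a second annotated start. Matches to the homology region stand in 11 of 13 mitotic lines and 1 of 11 transport lines.

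Transport kinesins differed less from gene to gene. Of the 14 tested, 10 had a positive difference and 4 a negative one, with a median of 0.100, quartiles of -0.014 and 0.16, and a range from -0.17 to 0.32. None reached an unadjusted p under 0.05 in limma, and the lowest adjusted p was 0.841. In 2 members the Nol3-/- MPN arrays lay above the Nol3+/+ arrays and in 1 below, beside 19.7% and 15.9% of all tested genes. The SD of the differences over members was 0.14, against 0.32 in the mitotic class, with median standard errors of 0.17 and 0.19.

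Kif13a, a carrier of endosomal cargo, had the smallest p of the class. It read 5.56 and 5.73 in Nol3-/- MPN, against 5.35 and 5.37 in Nol3+/+, with no overlap. The log2 difference was 0.28 (SE 0.13, 95% interval -0.057 to 0.62, adjusted p = 0.841 in limma). Among its relatives, Kif13b read 6.06 and 6.08 in Nol3-/- MPN and 6.10 and 6.12 in Nol3+/+. Its difference was -0.040 (95% interval -0.43 to 0.34). The early endosome motor Kif16b read 6.16 and 6.51 in Nol3-/- MPN, against 6.37 and 6.38 in Nol3+/+. Its difference was -0.035 (95% interval -0.54 to 0.47). These intervals overlap that of Kif13a, and a difference between these genes was not tested.

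Kif5b is the heavy chain of conventional kinesin found in most cell types, and it moves mitochondria, lysosomes and vesicles. Its brightest row read 9.97 and 9.84 in Nol3-/- MPN, against 9.69 and 9.57 in Nol3+/+. The groups separated, and the difference of 0.28 had an interval from -0.17 to 0.73 (adjusted p = 0.863 in limma). A second row of Kif5b read 8.10 and 8.02 in Nol3-/- MPN, against 8.03 and 7.97 in Nol3+/+, a difference of 0.060, so the rows gave 1 direction but different sizes and the second overlapped between groups. The heavy chains Kif5a and Kif5c are known mainly from neurons. Kif5a had a difference of 0.050, and Kif5c, with a mean below the limit for dim genes, was not tested.

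Kif1a, a motor of synaptic vesicle precursors in neurons, had the largest positive difference of the class at 0.32. It read 4.95 and 5.50 in Nol3-/- MPN, against 4.82 and 5.003 in Nol3+/+, around the limit for dim genes. The difference rested on Nol3-/- MPN replicate 2, since it was 0.039 without that array. Kif1b, its close relative, had a difference of 0.12 with overlapping arrays. Kif1c, which carries vesicles in cells outside the nervous system, read 5.54 and 5.70 in Nol3-/- MPN and 5.26 and 5.64 in Nol3+/+, and its difference of 0.17 became -0.019 without Nol3+/+ replicate 1.

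Kif3a, Kif3b and Kif3c are subunits of kinesin-2, which drives transport along cilia and in the cytoplasm. Kif3a read 6.17 and 6.44 in Nol3-/- MPN and 6.05 and 6.28 in Nol3+/+. Kif3b read 4.96 and 5.20 in Nol3-/- MPN and 5.02 and 4.92 in Nol3+/+. The groups overlapped for each of the 3 subunits, with differences of 0.14, 0.11 and -0.055 for Kif3a, Kif3b and Kif3c. A further row that names Kif3c together with another gene was left out. Kif17, a relative known from dendrites, had a difference of 0.063.

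The C-terminal motors Kifc2 and Kifc3 had differences of 0.085 and -0.17. Kifc3, which acts at cell junctions and in endosome transport, read 5.27 and 5.49 in Nol3-/- MPN and 5.74 and 5.37 in Nol3+/+. Its lower Nol3+/+ array lay between the Nol3-/- MPN arrays, and without Nol3+/+ replicate 1 its difference was 0.014. Kif21a and Kif21b, motors of the kinesin-4 family that also steady microtubule ends, were dim, with values between 4.48 and 4.77 over all arrays, and were not tested.

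**Figure D3:**
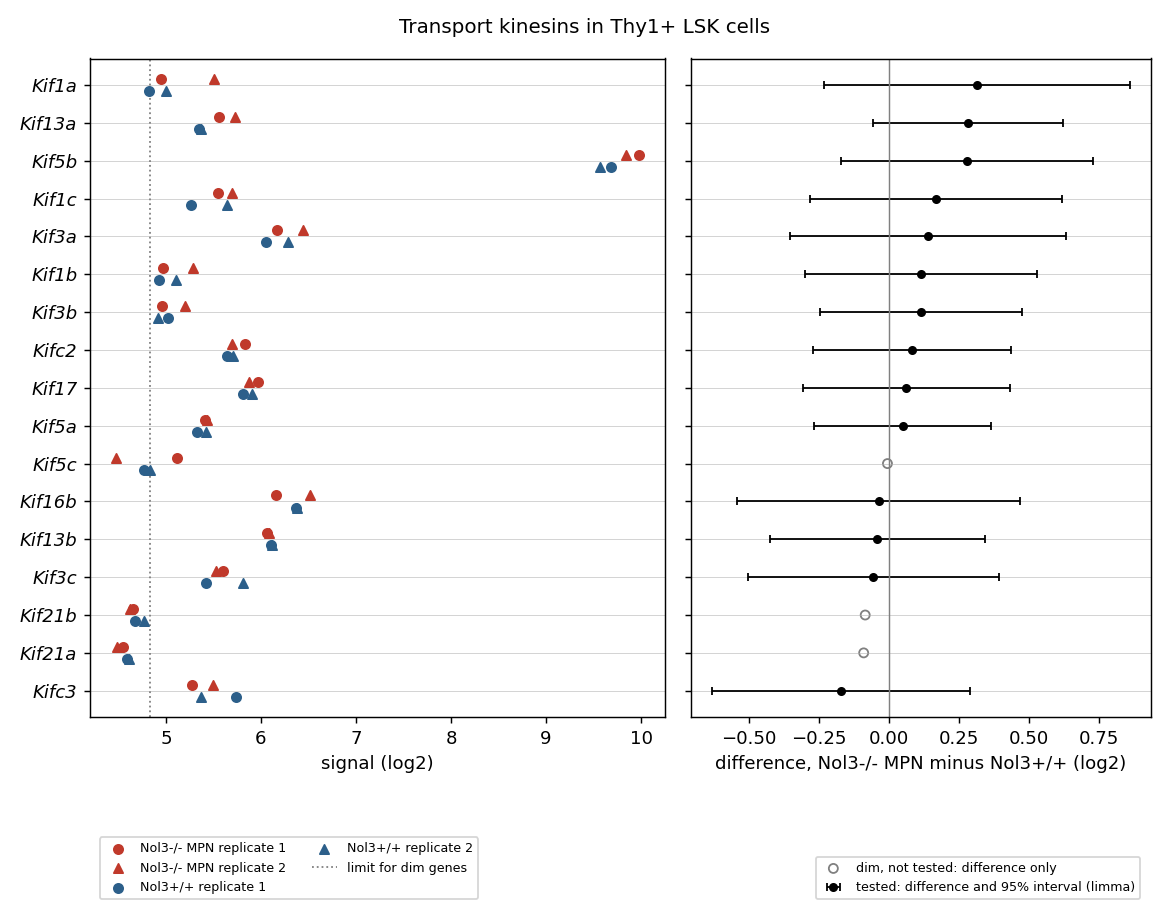
Transport kinesins, ordered by their difference and drawn as in the plot of mitotic kinesins. The left panel gives the log2 signal of each array (Nol3-/- MPN red, Nol3+/+ blue) and the right panel the log2 difference with its 95% interval from limma, where open circles mark dim genes that were not tested. Every tested interval includes 0.

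Set side by side, the class medians of the log2 differences lay close together. The median log2 difference was 0.13 for mitotic and 0.100 for transport members, so mitotic minus transport came to 0.029. When each member was centred on its own mean over the 4 arrays, the mitotic median stood at 0.11 and 0.097 in Nol3-/- MPN, against -0.026 and -0.12 in Nol3+/+. The transport median stood at -0.011 and 0.12 in Nol3-/- MPN and -0.082 and 0.020 in Nol3+/+. The groups separated for the mitotic median and overlapped for the transport median. The transport overlap was narrow, with 0.020 in a Nol3+/+ array above -0.011 in a Nol3-/- MPN array. Of all single genes tested, 19.7% separated upwards and 15.9% downwards, so separation alone is common with 2 arrays a group. A difference between the classes was not tested. Without centring, the median signal of the mitotic class minus that of the transport class was 0.85 and 0.88 in Nol3-/- MPN. In Nol3+/+ it was 0.66 and 0.42, without overlap, so the size of the contrast depended on the summary used. The order of the classes by median log2 difference rested on the arrays used. Mitotic minus transport was 0.14 on that measure without Nol3+/+ replicate 1 and -0.036 without Nol3+/+ replicate 2. By the log2 differences of members, the classes differed more in the reach of their upper members (up to 0.84 against up to 0.32) than in their middle. That contrast has no test here.

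**Figure D4:**
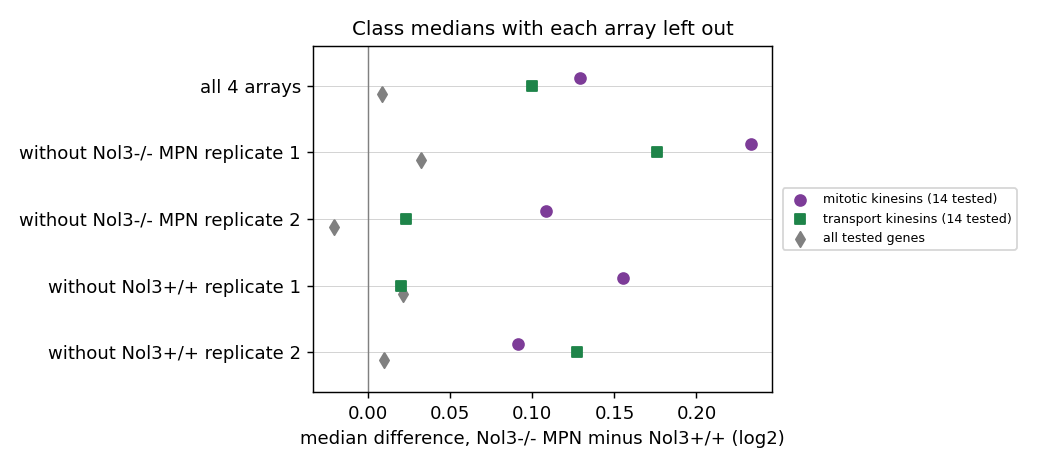
Median log2 difference, Nol3-/- MPN minus Nol3+/+, of the 14 tested mitotic kinesins (circles), the 14 tested transport kinesins (squares) and all tested genes (diamonds), with all arrays and with each array left out in turn. The mitotic median lies between 0.091 and 0.23 when an array is left out and the transport median between 0.020 and 0.18, and the transport median is the higher of the pair without Nol3+/+ replicate 2.

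Kinesins of cilia and signalling gave small differences. Kif7, which sits at the tip of the cilium and tunes Hedgehog signalling, read 5.73 and 5.72 in Nol3-/- MPN, against 5.84 and 5.88 in Nol3+/+, with no overlap. Its difference was -0.13 (95% interval -0.48 to 0.21, adjusted p = 0.917 in limma), but a second, dimmer row gave 0.16 in the opposite direction, so the rows of Kif7 disagree. Kif6 read 4.999 and 5.16 in Nol3-/- MPN and 5.10 and 5.36 in Nol3+/+. Kif24, a regulator of the centriole that gives rise to the cilium, read 6.48 and 6.02 in Nol3-/- MPN and 6.27 and 6.13 in Nol3+/+. Kif19a, which trims the length of motile cilia, had a difference of -0.069. Kif9 and Kif27 were dim and were not tested.

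Among the remaining members, Kif2a shares its depolymerising activity with Kif2c and works both in spindles and in resting cells. It read 9.42 and 9.04 in Nol3-/- MPN and 9.18 and 9.15 in Nol3+/+, so the Nol3-/- MPN arrays lay on both sides of the Nol3+/+ arrays. Kif26a, an atypical kinesin without motor activity, read 6.23 and 6.41 in Nol3-/- MPN, against 6.67 and 6.41 in Nol3+/+, a difference of -0.22 (95% interval -0.72 to 0.28) whose groups all but touch. Its relative Kif26b had a difference of -0.036. Kif4-ps, listed as a pseudogene of Kif4, read 4.62 and 5.09 in Nol3-/- MPN and 5.03 and 5.19 in Nol3+/+, and probes of a pseudogene may also bind its parent's RNA. Kif12 was dim. Of the 8 tested kinesins outside the mitotic and transport classes, 6 had a negative difference, with a median of -0.10.

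**Figure D5:**
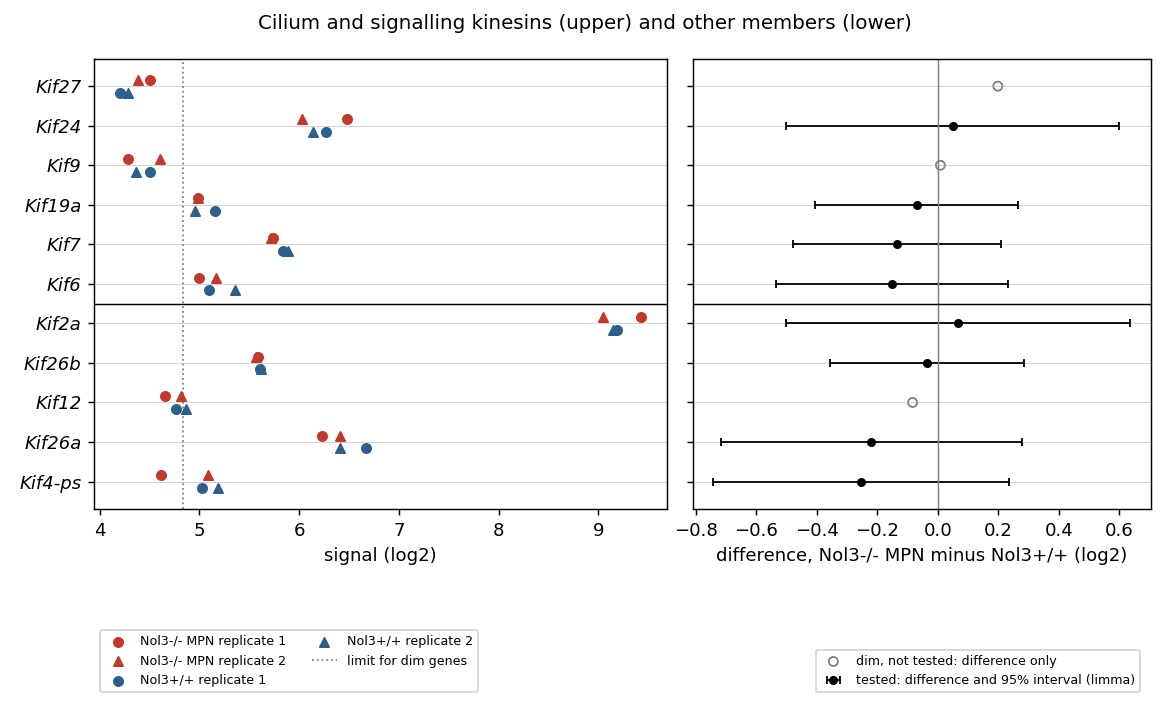
Kinesins of cilia and signalling (above the line) and the other members (below it), drawn as in the plot of mitotic kinesins, with Nol3-/- MPN in red, Nol3+/+ in blue and open circles for dim genes that were not tested. Signals are in log2 units and bars are 95% intervals from limma. Every tested interval includes 0.

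The proteins that mitotic kinesins work with were measured in the same arrays. Of 11 tested partners, 8 had a positive and 3 a negative difference, with a median of 0.087. None had an unadjusted p under 0.05 in limma, and the lowest adjusted p was 0.841. Cenpe, the kinesin-7 of kinetochores whose symbol lies outside the naming rule, read 8.55 and 8.88 in Nol3-/- MPN, against 8.14 and 8.37 in Nol3+/+, a difference of 0.46 (95% interval -0.16 to 1.08). Birc5, or survivin, a subunit of the passenger complex that Kif20a carries, had a difference of 0.27. The other subunits ran both ways with overlapping arrays, Aurkb at 0.23, Incenp at 0.057 and Cdca8 at -0.34. Cdca8 was the lowest of the list (95% interval -1.02 to 0.33). Tpx2, which recruits Kif15 to the spindle, had a difference of 0.39. Racgap1, the partner of Kif23 in centralspindlin, had one of -0.14, and Prc1, which anchors Kif4 and Kif14 at the midzone, read 8.44 and 7.76 in Nol3-/- MPN and 8.41 and 7.79 in Nol3+/+.

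Of 7 tested genes that mark cycling cells, 6 had a positive difference, with a median of 0.18, and none had an unadjusted p under 0.05 in limma. Mki67, the antigen of dividing cells, read 9.12 and 8.94 in Nol3-/- MPN, against 8.45 and 8.88 in Nol3+/+ (difference 0.37, 95% interval -0.26 to 0.99). Cdk1, the kinase of mitotic entry, had a difference of 0.46 (95% interval -0.51 to 1.44) and Cdc20, which triggers anaphase, one of 0.23. The groups overlapped for both. Both Nol3-/- MPN arrays lay above both Nol3+/+ arrays in 2 of the 7, Mki67 and Top2a, beside 19.7% of all tested genes. Top2a and Ccnb2 had 0.16 and -0.036. The summed linear signal of the 7 genes was 2708 and 2445 in Nol3-/- MPN, against 2207 and 2360 in Nol3+/+. The part of these genes in the values of the mitotic kinesins was not tested.

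For transport, 6 of 10 tested partners had a positive difference, with a median of 0.017. Kifap3, which joins cargo to Kif3a and Kif3b, read 5.53 and 5.77 in Nol3-/- MPN, against 5.33 and 5.24 in Nol3+/+ (difference 0.36, 95% interval -0.0035 to 0.73, adjusted p = 0.841 in limma). The adaptors Trak2 and Trak1, which tie mitochondria to Kif5b, had differences of 0.32 and -0.16. Klc1, a light chain of conventional kinesin, had 0.055. Dynein and dynactin, which move cargo the other way, had 10 of 15 tested members with a positive difference and a median of 0.055. In that list Dctn4, a dynactin subunit, read 6.83 and 6.50 in Nol3-/- MPN, against 5.77 and 6.01 in Nol3+/+ (difference 0.78, SE 0.21, adjusted p = 0.841 in limma). Dync1li2 and Dynlrb1, a light intermediate and a light chain of dynein, had 0.29 and 0.44, and the dynactin subunit Dctn5, added as the lowest of the list, had -0.52 (95% interval -1.38 to 0.35).

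Markers of other blood cells differed in part along with the groups. All 5 tested markers of mature granulocytes and monocytes had a negative difference, led by S100a9 at -0.83 and S100a8 at -0.86. For Ngp and Camp the groups overlapped. Nol3+/+ replicate 2 was high, at 7.61 and 6.38, and Nol3+/+ replicate 1, at 6.27 and 4.49, lay below both Nol3-/- MPN arrays. Itgam and Csf1r were dim, as was Ly6g, at 4.96 and 5.38 in Nol3-/- MPN, against 4.43 and 4.24 in Nol3+/+. The summed linear signal of all 8 was 738 and 679 in Nol3-/- MPN, against 868 and 1331 in Nol3+/+. For 4 B cell markers it was 196 and 204 in Nol3-/- MPN, against 169 and 167 in Nol3+/+, with Cd79b at 0.50 and Ms4a1 dim. The 3 erythroid markers gave 176 and 180 in Nol3-/- MPN and 181 and 166 in Nol3+/+. The 4 megakaryocyte markers gave 202 and 267 in Nol3-/- MPN and 267 and 224 in Nol3+/+. Their differences ran both ways, with Pf4 at 0.59, Ppbp at 0.020, Itga2b at -0.19 and Gp9 at -0.23, and a median of -0.084. The 5 T and NK cell markers gave 263 and 258 in Nol3-/- MPN, against 267 and 280 in Nol3+/+. No marker is at 0 on this scale, and the part of these cells in the kinesin values was not tested.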

How the data were processed

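The authors deposited 1 table of log2 signals for 4 whole-transcript arrays (41345 rows). Per the labels' protocols, total RNA went through isothermal whole-transcript amplification and biotin labelling. The submitters' processing notes name Affymetrix Expression Console and the Transcriptome Analysis Console. The normalization is not given in the sources used here, and the log2 scale was read from the values, 2.84 to 13.5, and its base is not stated, so fold changes assume base 2. Rows were named through the platform annotation: 23521 had 1 symbol, and the 1814 with several and the 16010 with none were not named. All 42 kinesins were found in a RefSeq table of GRCm38.p6.

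Genes whose mean lay under the 25th percentile, 4.835, were left out, which kept 16635 of 22180. The test was limma 3.58.1 under R 4.3.3, with lmFit and eBayes with a variance trend, and p-values were adjusted by Benjamini-Hochberg over all genes tested. An exact permutation test of 2 against 2 arrays cannot give a two-sided p below 0.333. The fit was tested on simulated data. No detection calls were used here to tell low signals from background. Signals of different genes come from different probes. Mean signal served for the filter on dim genes and to choose the row of a gene with several rows. It also served to choose which members are given array by array. The number of arrays limits the precision.

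The members, classes and lists were chosen with earlier results of these data known. Values of every array are given for the 6 tested members with the smallest p and the 3 brightest of the mitotic and of the transport class, and for 2 and 1 in the remaining classes. Further members serve as examples. From each partner list the 3 members with the smallest p are named, and others as examples. Deviations of arrays with the same replicate number correlated at 0.049 over the tested genes, and the labels do not say that a number marks a shared animal or day, so the number is not used as a pairing. The 14 alternatives covered the replicate block, each array left out, the filter, the variance model, array weights, normalization, several rows of a gene and sex-linked genes.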

Additional observations from a re-analysis of the deposited data

How the results depend on the processing

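No kinesin passed the adjusted threshold in limma under any of the 14 alternatives, and the lowest adjusted p was 0.304, for Kif20b without Nol3+/+ replicate 2. With the replicate block 2 kinesins had an unadjusted p under 0.05 (Kif20b and Kif2c), against 3 without it, and 0 of all tested genes passed the adjusted threshold, against 4. The block was fitted to all tested genes, and among the kinesins it changed only the unadjusted call of Kif22. Leaving out X- and Y-linked genes also left 0 of all tested genes past the adjusted threshold. With an array left out, 1 group held 1 array, so log2 differences stand here in place of counts at an unadjusted p. For the 3 kinesins under that p with 4 arrays, they ran from 0.74 to 0.94 (Kif20b), 0.43 to 0.55 (Kif2c) and 0.45 to 0.56 (Kif22). With an array left out, kinesins that separated numbered 13 to 18 upwards and 8 to 10 downwards, against 10 and 5, where 31.9% to 37.7% of all tested genes separated upwards and 26.3% to 35.8% downwards, against 19.7% and 15.9% with 4 arrays. For transport kinesins upwards the range was 3 to 10 of 14, against 2, and for mitotic ones 8 to 10 of 14, against 8, beside the same shares. The mitotic median then ran from 0.091 to 0.23, the transport median from 0.020 to 0.18, and mitotic minus transport from -0.036 to 0.14. Under the other alternatives that last value stayed between 0.023 and 0.14, the highest with the stricter filter at the 50th percentile. Kif20b, Kif2c, Kif22, Kif15, Kif23, Kif11, Kif13a and Kif5b kept a positive difference under all 14, between 0.74 and 0.94 for Kif20b. Some small differences turned: Kif18a to 0.13, Kif1c to -0.019 and Kifc3 to 0.014 without Nol3+/+ replicate 1 (-0.52, 0.36 and -0.36 without Nol3+/+ replicate 2), Kif16b to 0.14, Kif24 to -0.18 and Kif2a to -0.12 without Nol3-/- MPN replicate 1 (-0.21, 0.28 and 0.26 without Nol3-/- MPN replicate 2), Kif24 to -0.019 without Nol3+/+ replicate 2, Kif3b to -0.0047 without Nol3-/- MPN replicate 2, and Kif7 to 0.014 with the mean of its rows. The cause was not tested, except for Kif7, whose rows disagree.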
